A study of Mus musculus with 8 samples.

Results

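The genes described here are the heat shock proteins and chaperonins of activated mouse CD8 T cells, taken from a table of 35072 genes by symbol: the names starting Hspa, Hspb, Hspd, Hspe, Hsph and Hsp90, the Dnaja, Dnajb and Dnajc series, Cct2 to Cct8, Tcp1, Cdc37 and Cdc37l1. The rule found 80 genes, of which 69 passed the filter on low counts and entered the test. In family terms these were 5 HSP90 genes (with Cdc37 and Cdc37l1), 15 HSP70 genes (with the HSP110 gene Hsph1 and the co-chaperone Hspbp1), 43 DNAJ genes, 7 subunits of the chaperonin CCT, the mitochondrial pair Hspd1 and Hspe1, and 8 small heat shock genes (with Hspbap1). The rule reads symbols only and sets no cut on a value, though earlier results of these data were known when the genes were chosen.

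RNA came from 8 libraries, 4 of CD8 T cells given 2 mM formate for 24 h and 4 of cells given PBS, the vehicle. All cells were wildtype and naive when taken from spleen and lymph nodes. All were first activated for 18 h by anti-CD3 and anti-CD28 antibodies plus IL-12, and only then received formate or PBS, so the PBS cells are activated cells and not resting ones. The sources used here give neither strain, age nor sex, and do not say whether libraries of a group stem from different animals or cultures. The p-values therefore cover the spread between libraries only, part of which could be technical.

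Chaperones keep newly made and damaged proteins from clumping and help them fold. HSP70 proteins bind short stretches of unfolded chain in a cycle driven by ATP, DNAJ proteins bring them clients and trigger that cycle, and HSP110 proteins and Hspbp1 reset it by releasing the nucleotide. HSP90 takes over clients that are nearly folded, many of them kinases delivered by Cdc37, while the ring-shaped chaperonins CCT (cytosol) and HSP60 with its lid HSP10 (mitochondrion) enclose their clients. Formate is a donor of single carbons to the folate cycle, which activated T cells use to make purines. The question the design poses for these genes is whether adding it after activation changes the transcripts of the folding machinery.

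Library totals ranged from 29361986 to 41393093 counts, and 3 counts correspond to between 0.0728 and 0.101 CPM (counts scaled to the library total) in a library. The number in each title, called its code here, split the libraries into codes 1 to 8 and codes 10 to 14, each with 2 formate and 2 PBS libraries, and this split lay along the first principal component, which held 51.2% of the variance. Formate and PBS libraries with neighbouring codes (1 and 2, 7 and 8, 10 and 11, 13 and 14) deviated together from their group means. Each result is therefore given from an unpaired fit and from a fit with these pairs as a block (the paired fit). The correlation was 0.653 for codes 1 and 2 and 0.656 for codes 10 and 11. It was 0.369 for codes 7 and 8 and 0.37 for codes 13 and 14. Libraries of a code set that are not neighbours reached 0.373, so the check cannot tell the latter pairs from the split by code set. With the code set as covariate in place of the pairs, 0 chaperone genes and 1 of all 13299 tested genes were called. CD8 T cell markers summed to between 5910 and 8030 CPM in formate libraries and between 6120 and 8310 CPM in PBS libraries, while NK markers reached at most 0.108 CPM in a formate library and 0.228 CPM in a PBS library. Summed B cell markers were 17.8 to 31 CPM with formate and 15.9 to 27.4 CPM with PBS, and summed myeloid and dendritic markers 4.09 to 6.42 CPM with formate and 3.25 to 5.41 CPM with PBS. Both sums were higher with formate in 4 of 4 pairs, and their part in the results was not tested. CD4 T cell markers summed to 12.8 to 22 CPM with formate and 12.8 to 20.5 CPM with PBS, and stromal markers to 17.4 to 22.6 CPM with formate and 17.2 to 23.8 CPM with PBS. The mitochondrially encoded share of counts was 0.56% to 0.906% with formate and 0.414% to 0.566% with PBS, and its part in the results below was not tested. Below, values by library are in CPM scaled by TMM and follow the codes 2, 8, 11 and 14 for formate and 1, 7, 10 and 13 for PBS, so that the values at the same place belong to neighbouring codes.

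Chaperone transcripts as a whole held a slightly lower share of TMM-scaled counts with formate in 4 of 4 pairs, given without a test. The share was 2.92%, 3.08%, 2.48% and 2.75% with formate, against 2.99%, 3.19%, 2.72% and 2.88% with PBS. Its mean was 2.81% ± 0.257 of TMM-scaled counts in formate libraries and 2.94% ± 0.197 in PBS libraries (SD, n = 4 each). The TMM factors were 0.9976 to 1.027 in formate libraries and 0.9776 to 0.9978 in PBS libraries. A higher factor lowers this share, so part of the difference comes from the scaling. The ranges of 2.48% to 3.08% with formate and 2.72% to 3.19% with PBS overlap. As bulk RNA was sequenced, fewer cells of a type and less RNA per cell cannot be told apart. No chaperone gene passed an adjusted p of 0.05 in the unpaired edgeR fit in either direction, where 0.00752% of all 13299 tested genes were called higher and 0% lower. In that fit 2 of the 69 had an unadjusted p under 0.05, as had 634 of all tested genes. DESeq2 without pairs called 11 higher and 10 lower among all tested genes, and among the chaperone genes 1, Cdc37l1, higher. In the paired fit 5 were higher and 11 lower with formate, which is 7.25% and 15.9% of the 69, beside 5.35% and 7.52% of all tested genes. The share called higher is near that of all genes. All 16 moved in their called direction in 4 of 4 pairs. The paired fit favours genes whose pairs agree, so this is not separate support for the calls. Their differences were small, between 0.154 and 0.385 in size on the log2 scale.

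The 5 genes higher in the paired fit were Cdc37l1, Dnajb9, Dnajc15, Hspa13 and Hspe1. The 11 lower were Hspd1, Dnajc7, Dnajc21, Hspa9, Hspbp1, Dnajc2, Hsph1, Dnaja2, Dnaja1, Hspa4 and Hsp90b1. Leaving out a pair left fewer: 2 higher and 5 lower without codes 1 and 2, 3 and 6 without codes 7 and 8, 4 and 10 without codes 10 and 11, and 2 and 4 without codes 13 and 14. Calls over all tested genes fell as well, from 711 higher and 1000 lower with all pairs. They were 160 and 177, 303 and 419, 556 and 815, and 224 and 278, in the same order. Cdc37l1, Dnajc15, Hspd1, Dnajc7 and Dnajc21 were past the threshold in all 4 of these fits. Only 3 of the 16 had groups that did not overlap: Cdc37l1 had every formate library above every PBS library, and Hsp90b1 and Dnajc21 had every formate library below, where 2.44% and 1.85% of all tested genes did so.

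**Figure D1:**
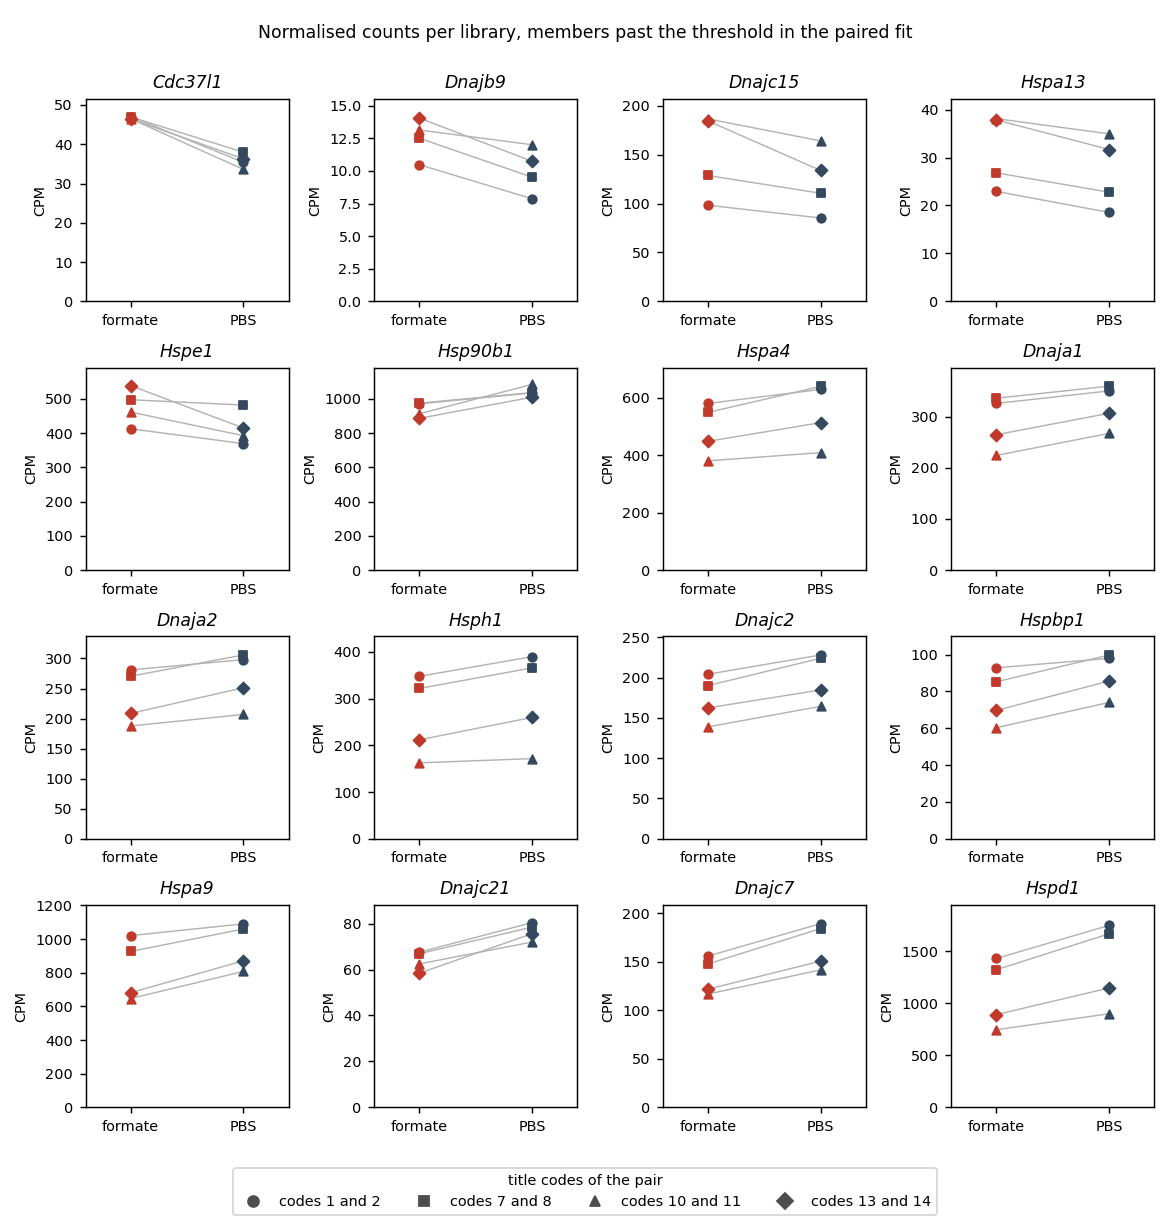
CPM of the 16 genes past the threshold in the paired fit, formate at the left and PBS at the right of each panel, with 1 point per library, 1 symbol shape per pair of title codes and a grey line joining the pair; each axis starts at 0. All lines of a panel slope the same way, which the choice of genes by the paired fit favours. In most panels the 2 columns of points overlap, and only Cdc37l1, Hsp90b1 and Dnajc21 separate the groups.

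Over the 69 tested genes the median log2 change was -0.06 in the unpaired fit, with 25 positive and 44 negative values, against a median of -0.01 over all tested genes. HSP90 genes had a median of -0.13, HSP70 genes -0.08, CCT -0.06, HSP60 and HSP10 -0.06, DNAJ -0.04 and the 2 tested small heat shock genes -0.23. The paired fit called 1 higher and 1 lower of 5 HSP90 genes, 1 and 4 of 14 HSP70 genes, 2 and 5 of 39 DNAJ genes, 0 and 0 of 7 CCT genes, 1 and 1 of the HSP60 and HSP10 pair, and 0 and 0 of 2 small heat shock genes. The HSP90, HSP70, DNAJ and HSP60 with HSP10 families each held calls of both directions. Grouped by where the proteins work, from textbook knowledge and after the values were known, 0 higher and 3 lower were among 10 cytosolic HSP70 and HSP110 genes, 2 and 1 among 13 genes of the endoplasmic reticulum (ER), 2 and 2 among 10 mitochondrial genes, and 1 and 0 among 4 genes of cytosolic HSP90 and its kinase co-chaperones. Of all tested genes 5.35% were higher and 7.52% lower, and nothing is read from these small groups.

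**Figure D2:**
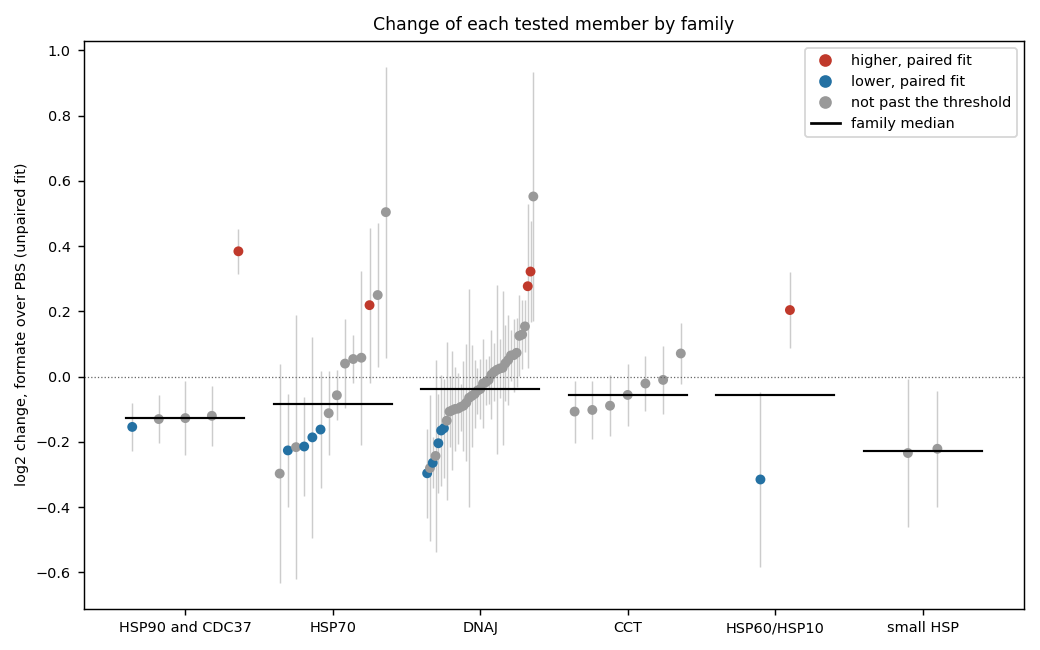
Log2 change, formate over PBS, of each of the 69 tested genes by family, from the unpaired fit, with grey bars of 1 standard error and a black line at the family median. Red and blue points passed the threshold in the paired fit; the CCT points lie close together between -0.11 and 0.07, while the DNAJ points spread from -0.30 to 0.55.

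Some of these genes carry sequence elements known from the heat shock and unfolded protein responses close to their start, and 4 windows are shown, of 2 genes for each of these responses. Each runs from 250 bases before to 50 bases after a RefSeq start (GRCm38.p6). In Hspe1 (chr1:55087898-55088197, plus strand) and Hsph1 (chr5:149636266-149636565, minus strand) the capitals mark heat shock elements, that is GAANNTTC or TTCNNGAA, which overlap where units follow each other. In Hspa5 (chr2:34771840-34772139, plus strand) and Hsp90b1 (chr10:86705395-86705694, minus strand) they mark the ER stress response element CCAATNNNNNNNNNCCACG on either strand.
Hspe1: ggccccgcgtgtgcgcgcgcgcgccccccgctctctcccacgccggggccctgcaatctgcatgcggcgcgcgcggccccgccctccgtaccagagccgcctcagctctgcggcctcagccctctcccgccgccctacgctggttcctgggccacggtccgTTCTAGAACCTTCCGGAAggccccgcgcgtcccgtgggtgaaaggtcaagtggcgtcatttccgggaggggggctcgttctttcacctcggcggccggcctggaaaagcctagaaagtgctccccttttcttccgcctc
Hsph1: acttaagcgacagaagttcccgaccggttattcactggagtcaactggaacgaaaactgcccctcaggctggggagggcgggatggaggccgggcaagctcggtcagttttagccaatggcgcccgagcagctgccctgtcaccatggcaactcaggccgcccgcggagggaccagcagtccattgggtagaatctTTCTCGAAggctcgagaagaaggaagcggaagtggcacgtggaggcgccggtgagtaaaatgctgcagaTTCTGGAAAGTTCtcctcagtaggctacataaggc
Hspa5: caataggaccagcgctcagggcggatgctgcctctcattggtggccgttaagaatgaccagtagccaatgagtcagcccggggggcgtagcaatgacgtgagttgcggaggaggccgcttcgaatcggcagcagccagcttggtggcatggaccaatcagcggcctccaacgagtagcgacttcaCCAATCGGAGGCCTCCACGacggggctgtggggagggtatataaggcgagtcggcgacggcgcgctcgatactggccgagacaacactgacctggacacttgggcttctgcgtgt
Hsp90b1: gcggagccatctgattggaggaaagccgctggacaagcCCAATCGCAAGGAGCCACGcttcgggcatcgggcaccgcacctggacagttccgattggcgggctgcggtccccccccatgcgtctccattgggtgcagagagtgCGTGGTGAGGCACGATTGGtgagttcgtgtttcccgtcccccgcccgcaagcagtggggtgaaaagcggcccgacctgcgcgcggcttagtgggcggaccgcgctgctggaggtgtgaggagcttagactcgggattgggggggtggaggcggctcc

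A window was found for 66 of the 80 genes. GAANNTTC was in the windows of 14 of them (21.2%) and of 9.04% of 27025 genes, and TTCNNGAA was in 8 (12.1%) and 9.6%. The element of 3 units, GAANNTTCNNGAA on either strand, was in 4 (6.06%) and in 0.662% of all genes: Hspe1, Hspd1, Hsph1 and Dnajb6. The ER element was in 3 (4.55%) and in 0.137% of all genes, in Hspa5, Hsp90b1 and Dnajc3, a protein that restrains an ER stress kinase. Of the genes with the element of 3 units, Hspe1 was higher and Hspd1 and Hsph1 were lower in the paired fit, and Dnajb6 was not called (-0.04, SE 0.04). Of those with the ER element, Hsp90b1 was lower, and Hspa5 (0.05, SE 0.05) and Dnajc3 (-0.02, SE 0.05) were not called; the differences between these genes were not tested. A match of letters is a description and not a bound site.

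In the HSP90 family every gene but Cdc37l1 was lower in all 4 pairs. Hsp90ab1, the constitutive cytosolic HSP90, was the highest of all these genes per length (5870 CPM per kilobase of transcript on average), and had 5897, 6078, 5357 and 5634 CPM with formate, against 6064, 6428, 6388 and 6247 CPM with PBS. Its groups overlap slightly, with the highest formate library just above the lowest PBS library. Its log2 change was -0.13 (SE 0.07, adjusted p = 0.998) in the unpaired edgeR fit and -0.13 (SE 0.05, adjusted p = 0.113) in the paired fit.

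Hsp90aa1, the stress-inducible cytosolic HSP90, averaged 1818 ± 226 CPM with formate and 1985 ± 188 CPM with PBS, and its paired log2 change of -0.13 (SE 0.05) had an edgeR adjusted p of 0.0829. The ratio of the constitutive to the inducible gene was 3.18 ± 0.222 with formate and 3.19 ± 0.34 with PBS (SD, n = 4 each). Summed over the family, HSP90 transcripts held 9168, 9513, 8158 and 8585 CPM in formate libraries and 9528, 10050, 9569 and 9590 CPM in PBS libraries. By that TMM-scaled sum all formate libraries lie below all PBS libraries, the closest by a small margin (9513 against 9528 CPM). The separation depends on the scaling. Without the TMM factors (0.9976 for code 8 and 0.9776 for code 10) code 8 would lie above code 10. Most of the sum is Hsp90ab1, whose own groups overlap. Of single tested genes, 1.85% had every formate library below every PBS library.

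Hsp90b1, the HSP90 of the ER, which folds integrins and Toll-like receptors, had 971, 975, 913 and 886 CPM with formate, against 1035, 1037, 1085 and 1010 CPM with PBS. The groups do not overlap. The log2 change was -0.15 (SE 0.07) with an edgeR adjusted p of 0.998 unpaired, and -0.15 (SE 0.05) with 0.0447 paired. It is the called gene closest to the threshold, and its paired call is lost under upper quartile scaling (adjusted p = 0.0713), under library size alone (0.0904) and without any of the 4 pairs.

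Cdc37l1 (ENSMUSG00000024780, chromosome 19, 28990352 to 29026681, GRCm38), a relative of the kinase co-chaperone Cdc37 that binds HSP90, showed the clearest difference of all 69 genes in the unpaired fit. It had 47.0, 47.0, 46.5 and 46.4 CPM with formate, against 35.4, 38.0, 33.6 and 36.3 CPM with PBS. The formate libraries are almost level with each other and all lie above the PBS libraries. The means were 46.7 ± 0.311 CPM with formate and 35.8 ± 1.82 CPM with PBS (SD, n = 4 each), with a log2 change of 0.38 (SE 0.07), for which edgeR gave an unadjusted p of 0.000374 and an adjusted p of 0.711 unpaired, and an adjusted p of 0.00167 paired. Cdc37 itself averaged 313 ± 28.2 CPM with formate and 340 ± 16.6 CPM with PBS, and was not called (paired edgeR adjusted p = 0.0811). The ratio of Cdc37l1 to Cdc37 was thus 0.14 to 0.169 with formate and 0.101 to 0.109 with PBS.

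Among HSP70 genes the abundant housekeeping chaperones Hspa8 and Hspa5 were not called, while Hspa9, also abundant, was called lower. The other 3 of the 4 called lower were factors that release the nucleotide from HSP70, a role noted after the values were known. Hspa8, the constitutive cytosolic HSP70 and the second of these genes per length (3730 CPM per kilobase), had 6321, 7248, 4979 and 6284 CPM with formate, against 6207, 6909, 5018 and 6026 CPM with PBS. The values follow the pairs more than the treatment, with both libraries of codes 10 and 11 lowest and both of codes 7 and 8 highest. Its log2 change was 0.04 (SE 0.14) unpaired and 0.04 (SE 0.05) paired. Hspa5, the HSP70 of the ER known as BiP, averaged 1060 ± 41.6 CPM with formate and 1021 ± 33.7 CPM with PBS, a log2 change of 0.05 (SE 0.05, edgeR adjusted p = 0.484) in the paired fit.

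These exchange factors were Hsph1, Hspa4 and Hspbp1. Exchange factors outside the naming rule, Bag1 to Bag5, Hyou1, Sil1, Grpel1 and Grpel2, were not called in the paired fit. The calls therefore do not cover this role as a whole. Hsph1, an HSP110 protein, had 347.6, 321.7, 162.4 and 211.7 CPM with formate, against 389.7, 365.7, 171.5 and 259.7 CPM with PBS. The groups overlap widely, since the libraries of codes 10 to 14 lie far below those of codes 1 to 8 under both treatments. Its log2 change was -0.19 (SE 0.31, edgeR adjusted p = 0.998) unpaired and -0.18 (SE 0.05, adjusted p = 0.02) paired. Hspa4, a further HSP110 protein, averaged 489 ± 91.9 CPM with formate and 547 ± 109 CPM with PBS (paired -0.16, edgeR adjusted p = 0.0305). Hspbp1, which frees the nucleotide by another route, averaged 77.0 ± 14.7 CPM with formate and 89.3 ± 12.0 CPM with PBS (paired -0.22, edgeR adjusted p = 0.0103). Hspa4l, their relative, was lower in 4 of 4 pairs but not called (paired -0.11, SE 0.06). The calls of Hsph1 and Hspa4 were lost without codes 1 and 2, without codes 7 and 8 and without codes 13 and 14. That of Hspbp1 was lost without codes 13 and 14.

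Hspa9, the mitochondrial HSP70 that pulls imported proteins into the matrix, had 1021, 927, 647 and 682 CPM with formate, against 1091, 1060, 808 and 871 CPM with PBS. Each formate library lies below its neighbour, and the groups overlap. The log2 change was -0.23 (SE 0.17, edgeR adjusted p = 0.998) unpaired and -0.24 (SE 0.05, adjusted p = 0.00857) paired. Hspa13, a truncated HSP70 of the ER, went the other way, with 22.9, 26.8, 38.1 and 37.8 CPM with formate, against 18.5, 22.8, 34.9 and 31.7 CPM with PBS. Its paired log2 change of 0.23 (SE 0.06, edgeR adjusted p = 0.0226) became 0.109 (adjusted p = 0.261) when counts were corrected for the GC content of the genes.

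The stress-inducible HSP70 genes had low levels. Hspa1a averaged 3.96 ± 1.52 CPM with formate and 4.88 ± 1.37 CPM with PBS, and Hspa1b 8.50 ± 2.72 CPM with formate and 8.17 ± 2.19 CPM with PBS, and neither was called in either fit (paired log2 change -0.33, SE 0.13, and 0.05, SE 0.10). Their sequences are nearly identical, so the split of reads between them is uncertain. Hspa14, a ribosome-associated HSP70, averaged 175 ± 6.62 CPM with formate and 182 ± 9.44 CPM with PBS and was not called either (paired -0.06, SE 0.05). The lowest tested HSP70 genes were Hspa1l and Hspa2, known from testis, and Hspa12b, known from endothelium, each below 5 CPM in every library and not called.

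The ring gene and the lid gene of the mitochondrial chaperonin moved in opposite directions, though the call of the lid gene was less stable. Hspd1, which encodes HSP60, had 1430, 1322, 746 and 891 CPM with formate, against 1748, 1667, 899 and 1147 CPM with PBS. Hspe1, which encodes HSP10, had 413, 498, 462 and 539 CPM with formate, against 370, 482, 393 and 415 CPM with PBS. Every pair shows less Hspd1 and more Hspe1 with formate, although for each gene the groups overlap. For Hspe1 the log2 difference in codes 7 and 8 was only 0.046. Its paired call was lost without codes 1 and 2, without codes 10 and 11 and without codes 13 and 14. Hspd1 changed by -0.31 on the log2 scale (SE 0.27, edgeR adjusted p = 0.998 unpaired; SE 0.05, adjusted p = 0.00173 paired), and Hspe1 by 0.20 (SE 0.12, adjusted p = 0.998 unpaired; SE 0.05, adjusted p = 0.0209 paired).

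The ratio of Hspd1 to Hspe1 was 3.46, 2.66, 1.62 and 1.65 with formate, against 4.73, 3.46, 2.29 and 2.76 with PBS. It is lower with formate in 4 of 4 pairs, and the highest formate library equals the second highest PBS library. The genes lie head to head on chromosome 1 (GRCm38), Hspd1 at 55077835 to 55088243 on the minus strand and Hspe1 at 55088132 to 55091307 on the plus strand, so their models overlap by 112 bases. The library kit keeps strand, but the strand setting of the counting is not given in the sources used here, and reads in the overlap could have been assigned to either. Rows of pseudogenes named after these genes, 11 in all, held between 6.7 and 36 counts in a library, against at least 13671 for Hspe1 and 22498 for Hspd1.

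**Figure D3:**
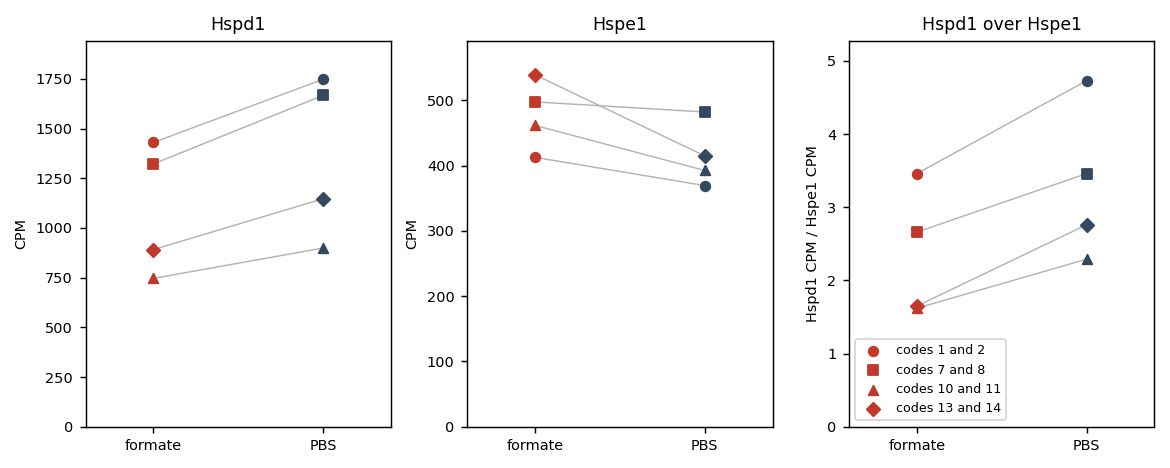
CPM of Hspd1 and Hspe1 and the ratio of their CPM in each library, formate at the left and PBS at the right of each panel; symbol shapes give the pair of title codes and grey lines join the pair. Hspd1 is lower and Hspe1 higher with formate along every line, so the ratio is lower with formate in all 4 pairs.

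CCT, the cytosolic ring that folds actin and tubulin, was called in neither edgeR fit for any of its 7 measured subunits. In the paired edgeR fit 2 of them, Cct2 and Cct8, had an unadjusted p under 0.05, as had 3761 of all 13299 tested genes. That share is near the one for CCT. DESeq2 with pairs called both lower, among 1082 of all tested genes called lower. The subunits had similar levels, with group means between 687 CPM (Cct8 with formate) and 1003 CPM (Tcp1 with PBS). Cct8 averaged 687 ± 58.3 CPM with formate and 740 ± 58.6 CPM with PBS (paired log2 change -0.11, SE 0.05, edgeR adjusted p = 0.125). Cct2 had a paired change of -0.10 (SE 0.05, adjusted p = 0.145), Cct7 -0.09 (SE 0.05), Tcp1 -0.05 (SE 0.05), Cct5 -0.02 (SE 0.05) and Cct3 -0.01 (SE 0.05). Cct4 alone was positive, at 0.07 (SE 0.05), and was higher in 4 of 4 pairs, with 746 ± 52.8 CPM with formate and 710 ± 56.1 CPM with PBS. Cct6a was not analysed here.

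In the DNAJ family 2 genes were higher and 5 lower in the paired fit. Dnajc15, also called MCJ, sits in the inner mitochondrial membrane and is known in mouse CD8 T cells as a brake on respiration. It had 98.3, 129, 187 and 185 CPM with formate, against 85.3, 111, 164 and 134 CPM with PBS. Each formate library exceeds its neighbour, while the groups overlap because codes 10 to 14 lie above codes 1 to 8. The log2 change was 0.28 (SE 0.25, edgeR adjusted p = 0.998) unpaired and 0.27 (SE 0.05, adjusted p = 0.00501) paired. Dnajb9, a cofactor of BiP that helps remove misfolded proteins from the ER, had 10.5, 12.5, 13.1 and 14.1 CPM with formate, against 7.87, 9.52, 12.0 and 10.7 CPM with PBS. Its paired change of 0.33 (SE 0.08, edgeR adjusted p = 0.0195) became 0.233 (adjusted p = 0.0891) with the GC correction.

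Of those lower, Dnajc21 acts in the maturation of the large ribosomal subunit. It had 67.5, 66.9, 62.4 and 58.4 CPM with formate, against 80.4, 78.5, 72.0 and 75.6 CPM with PBS. The groups do not overlap. The log2 change was -0.26 (SE 0.08, edgeR adjusted p = 0.998) unpaired, with an unadjusted p of 0.00824, and the paired adjusted p was 0.00451.

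Dnajc7, which binds both HSP70 and HSP90, had 156, 148, 117 and 122 CPM with formate, against 190, 184, 142 and 151 CPM with PBS. Each formate library is lower than its neighbour by a like margin. The paired log2 change was -0.30 (SE 0.04, edgeR adjusted p = 0.00167). Dnajc2, which works with HSP70 at the ribosome, averaged 174 ± 29.1 CPM with formate and 200 ± 30.9 CPM with PBS (paired -0.21, edgeR adjusted p = 0.00759). The general cytosolic cofactors Dnaja1 (288 ± 52.8 CPM with formate and 321 ± 42.6 CPM with PBS) and Dnaja2 (237 ± 45.8 CPM with formate and 266 ± 45.9 CPM with PBS) had paired changes of -0.17 each, with edgeR adjusted p of 0.026 and 0.0248.

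The other DNAJ genes with high levels or small unpaired p were not called. Per length, the highest of the family was Dnajc8, a splicing-associated protein (231 CPM per kilobase), with 211 ± 22.2 CPM with formate and 193 ± 17.7 CPM with PBS, a paired log2 change of 0.13 (SE 0.05, edgeR adjusted p = 0.089). It passed the threshold in the paired edgeR fit scaled by library size alone (0.164, adjusted p = 0.0332). Dnajb6, which holds back protein aggregation (136 CPM per kilobase), and Dnajc9, a histone chaperone (107 CPM per kilobase), had paired changes of -0.04 (SE 0.04) and 0.02 (SE 0.05). Dnajb4 had a paired change of -0.30 (SE 0.10, edgeR adjusted p = 0.0534), was lower in 4 of 4 pairs and passed the threshold with the GC correction (-0.403, adjusted p = 0.0201). The paired change was 0.16 (SE 0.06) for Dnajc18, -0.09 (SE 0.05) for Dnajc5 and 0.50 (SE 0.36) for Dnajb3, which lay under 1 CPM in every library.

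**Figure D4:**
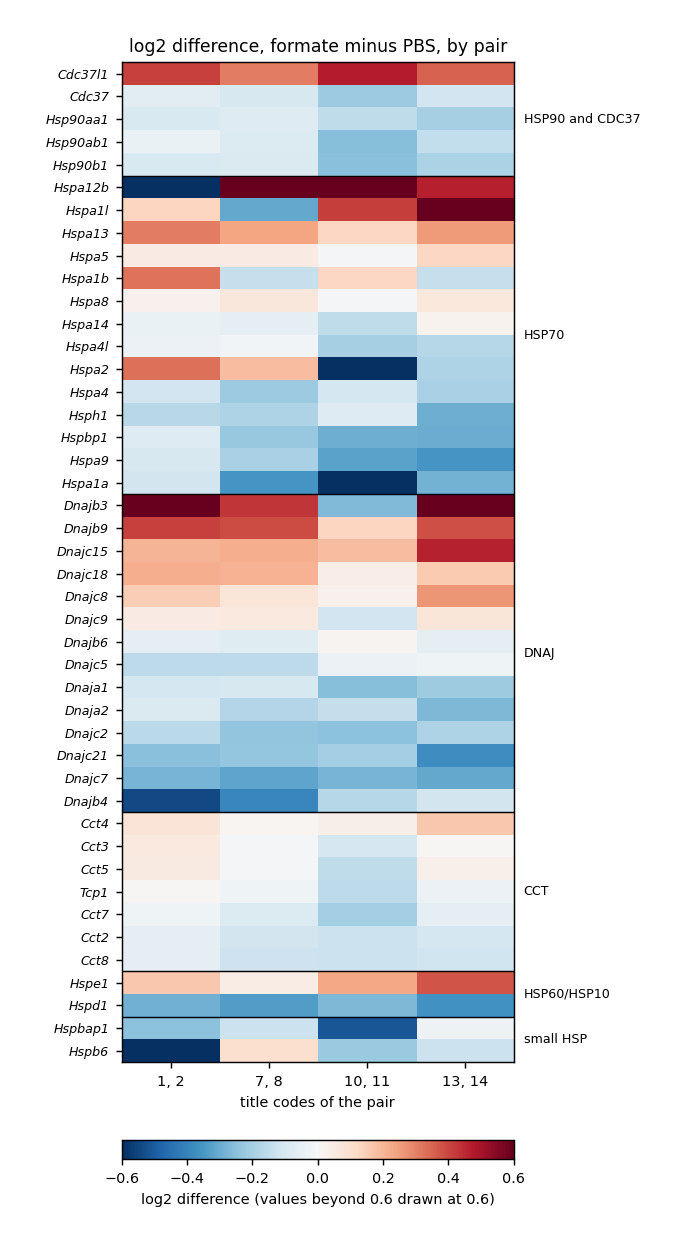
Log2 difference between the formate and the PBS library of each pair of title codes (columns) for the 44 genes described with values (rows, by family and sorted by the paired change); red is higher and blue lower with formate, and values beyond 0.6 are drawn at 0.6. Cdc37l1 and Hspe1 are red and Hspd1, Dnajc7 and Dnajc21 are blue in all 4 columns, while the CCT rows are pale.

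Small heat shock proteins were scarce. Hspb6 averaged 5.88 ± 1.45 CPM with formate and 6.90 ± 1.52 CPM with PBS (paired log2 change -0.24, SE 0.12), and Hspbap1, a partner of a small heat shock protein, 16.2 ± 3.34 CPM with formate and 18.9 ± 3.16 CPM with PBS (paired -0.23, SE 0.08, edgeR adjusted p = 0.0739). The other 6, Hspb1, Hspb2, Hspb3, Hspb7, Hspb8 and Hspb9, did not pass the filter, and Hspb3 was listed at 0 in all 8 libraries. Hspa12a, Dnajb7, Dnajb8, Dnajc6 and Dnajc22 did not pass it either.

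The split between codes 1 to 8 and codes 10 to 14 was larger than the formate difference for 52 of the 69 genes. The median size was 0.21 against 0.103 on the log2 scale, given here without a test. Both were computed for the chaperone genes only, so they are not read as particular to these genes. Codes 10 to 14 had less Hsph1 (-0.85), Hspd1 (-0.75), Hspa1a (-0.75) and Hspa1b (-0.70), and more Hspa2 (0.99), Dnajc15 (0.67) and Hspa13 (0.66). For Cdc37l1, Hspe1 and Hsp90b1 the split was small (-0.04, 0.04 and -0.05). Whether the formate difference depended on the split was tested in edgeR as an interaction, which called 0% of all tested genes: 154 of them and 0 of the chaperone genes had an unadjusted p under 0.05. Fitted within codes 10 to 14 alone, the log2 change was 0.43 (SE 0.11) for Cdc37l1, -0.31 (SE 0.16) for Hspd1, 0.32 (SE 0.12) for Hspe1, -0.28 (SE 0.11) for Dnajc7 and -0.27 (SE 0.11) for Dnajc21. Within codes 1 to 8 alone it was 0.35 (SE 0.10) for Cdc37l1, -0.32 (SE 0.10) for Hspd1, 0.09 (SE 0.16) for Hspe1, -0.30 (SE 0.08) for Dnajc7 and -0.24 (SE 0.08) for Dnajc21. All 16 genes called in the paired fit had the same direction within both sets, and none had an edgeR adjusted p under 0.911 with 2 libraries a group. As the paired fit on these libraries chose the genes, the shared direction is not separate support.

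**Figure D5:**
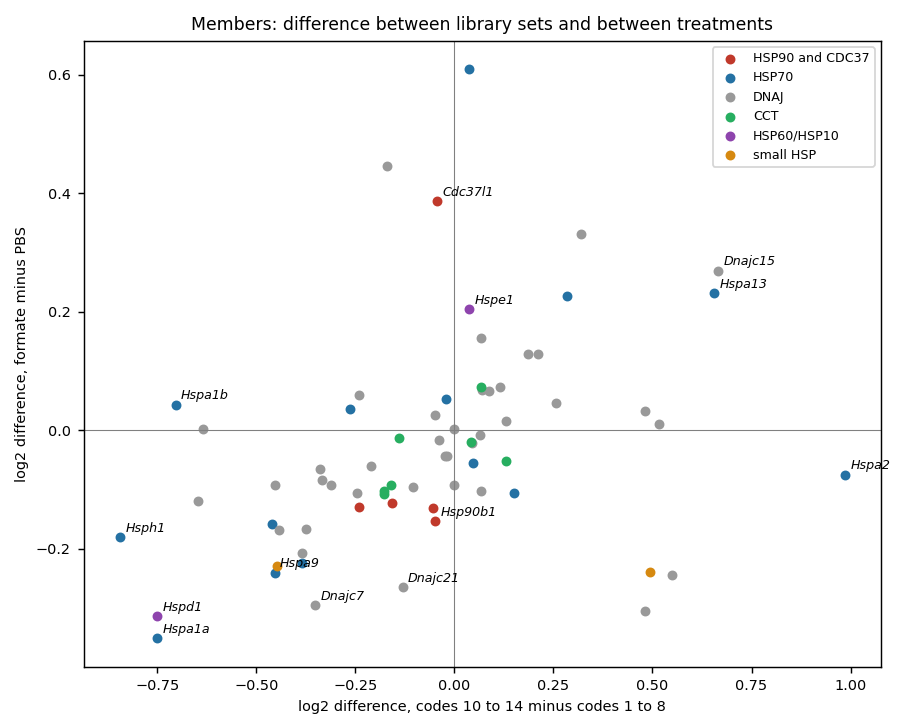
Log2 difference of each of the 69 tested genes between the libraries of codes 10 to 14 and those of codes 1 to 8 (horizontal) and between formate and PBS libraries (vertical), coloured by family. Most points spread farther along the horizontal than the vertical axis; Hsph1, Hspd1 and Hspa1a lie at the far left, and Cdc37l1 stands high near the middle.

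Partners of these genes that lie outside the naming rule were listed by function. Heat shock factors, which switch on heat shock genes, were not called: Hsf1 averaged 59.3 ± 12.2 CPM with formate and 60.4 ± 12.4 CPM with PBS. Of 25 further co-chaperones of HSP90 and HSP70, 0 were higher and 7 lower in the paired fit, beside 5.35% higher and 7.52% lower of all tested genes, with a median unpaired log2 change of -0.07 beside -0.01 over all genes. Fkbp5, an HSP90-bound immunophilin, averaged 127 ± 11.6 CPM with formate and 153 ± 7.80 CPM with PBS, with groups that do not overlap and a paired change of -0.28 (SE 0.05, edgeR adjusted p = 0.0025). Nudc (-0.24), Bag6 (-0.19) and Ppp5c (-0.16), an HSP90-bound phosphatase, were also lower.

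Prefoldin and the tubulin cofactors act before and after CCT. Of 16 tested genes 3 were higher and 2 lower in the paired fit, beside the same 5.35% and 7.52% of all genes, with a median unpaired log2 change of 0.10. The prefoldin subunits Pfdn5 (136 ± 31.3 CPM with formate and 110 ± 25.8 CPM with PBS; paired 0.30, edgeR adjusted p = 0.00905) and Vbp1 (0.22) were higher. The subunit Pfdn2, named here after its value was seen, was lower (69.9 ± 11.7 CPM with formate and 78.0 ± 14.1 CPM with PBS; paired -0.16, edgeR adjusted p = 0.0354). Also higher was the tubulin cofactor Tbce (0.25), while its partner Tbcd was lower at 63.4 ± 4.90 CPM with formate and 76.4 ± 1.93 CPM with PBS (paired -0.27, edgeR adjusted p = 0.00448). Of 25 ER folding and unfolded protein response genes 1 was called, the ER stress sensor Ern1 (0.21, edgeR adjusted p = 0.0391). Of 20 genes of mitochondrial protein import and quality control 2 were higher and 3 lower; the shares of all tested genes, 5.35% and 7.52%, apply to both lists. They included the import motor subunit Pam16 (0.34), the protease subunit Afg3l2 (-0.22), the protease Clpp (-0.22) and the import channel Tomm40 (-0.21).

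The median GC content of transcripts was 43% for the 5 genes called higher, 46.6% for the 11 called lower and 50.1% for those not called. These medians cover chaperone genes only, and their differences were not tested. With offsets for GC content the paired edgeR fit called 3 higher and 13 lower, beside 437 and 973 of all 13299 tested genes. Dnajb9 and Hspa13 were lost, the other 14 were kept, and Dnajb4 and Hsp90aa1 (adjusted p = 0.0317) were added. DESeq2 with pairs called 5 higher and 16 lower, beside 492 and 1082 of all tested genes. Its calls were all 16 of the paired edgeR fit and Cct2, Cct8, Cdc37, Hsp90aa1 and Hsp90ab1.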

How the data were processed

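For the 8 libraries the authors deposited estimated counts, summed from transcripts to genes without normalisation. Fractional values made up 56.7% of the entries above 0. Per the submitters' processing notes, Trimmomatic, kallisto and MultiQC were used, with the builds GRCm38 and mm10; the sources used here name no version, transcript set or strand setting. Per the labels' protocols, libraries were stranded, from polyA RNA, and read as pairs of 58 bases.

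Counts were rounded and tested in R 4.3.3 by the robust quasi-likelihood test of edgeR 4.0.16 (TMM, filterByExpr, Benjamini-Hochberg over all 13299 genes tested). CPM are TMM-scaled, with SD over 4 libraries; differences of single libraries use log2 CPM with a prior count of 2. A replicate block joined formate and PBS libraries with neighbouring title codes: deviations from the group means correlated at 0.653 (codes 1 and 2), 0.369 (7 and 8), 0.656 (10 and 11) and 0.37 (13 and 14). The labels state no pairing, and libraries of the same code set that are not neighbours reached 0.373. Alternatives were other scalings and filters, DESeq2 1.42.0, GC offsets and leaving out libraries. Within groups all library pairs differed by more than counting noise (chi-square per degree of freedom at least 22.2).

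The genes, gene lists and tests were chosen with earlier results of these data known. Values are given for all HSP90, CCT, HSP60 and HSP10 genes, for the HSP70 and small heat shock genes that passed the filter, and for the DNAJ genes called, with the 8 smallest unpaired p or the 5 highest levels per length; of other lists, at most 4 called genes with the smallest paired p. Coordinates and GC content are from GENCODE M21 (GRCm38), in which 34630 identifiers were found; promoter sequences are from RefSeq. Genes with near-identical copies or overlapping models are uncertain, as the estimate divides their reads.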

Additional observations from a re-analysis of the deposited data

How the results depend on the processing

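The unpaired edgeR fit called 0 chaperone genes higher and 0 lower under every scaling, filter and code set alternative and without any 1 library (0 to 0). Of all tested genes, each of these edgeR fits called at most 1 higher and 0 lower. Unpaired DESeq2 called 1 chaperone gene higher, beside 11 higher and 10 lower of all tested genes. With the replicate block, called chaperone genes higher and lower were 5 and 11 under TMM, 5 and 9 under upper quartile scaling (Hsp90b1 and Hspa4 lost) and 5 and 11 under RLE. They were 6 and 6 under library size alone (Dnaja1, Dnaja2 and Hsph1 also lost, Dnajc8 gained), 3 and 13 with GC offsets, and 5 and 16 with DESeq2. Over all 13299 tested genes, calls were 711 and 1000 under TMM, 832 and 736 under upper quartile scaling and 612 and 1126 under RLE. Library size alone gave 1048 and 539, GC offsets 437 and 973, and DESeq2 492 and 1082. Leaving out 1 pair of title codes gave 2 to 4 higher and 4 to 10 lower, beside 160 to 556 and 177 to 815 of all tested genes. All 16 genes called with the block kept their direction in each of these fits with the block.

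The DNAJ median moved to -0.002 with library size alone, to -0.001 with the block and upper quartile scaling, and to 0.014, the other sign, with the block and library size alone. The median of the small heat shock genes was 0.185 with no filter. That of the HSP60 and HSP10 pair was between -0.143 and 0.036 without 1 library and 0.008 in codes 10 to 14 alone, and that of HSP70 was 0 with the block without codes 10 and 11.

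Signs changed for 8 genes that were called in none of these fits. Cct3 was 0.009 with upper quartile scaling (0.008 with the block), 0.025 with library size alone (0.023 with the block), 0.002 with CPM over 1 in 4 libraries, 0.016 in codes 1 to 8 alone and 0.017 with the block without codes 10 and 11. Cct5 was 0.015 with library size alone (0.016 with the block), 0 with the block and upper quartile scaling, 0.014 in codes 1 to 8 alone and 0.023 with the block without codes 10 and 11. Hspa1l was -0.104 and Hspa2 0.254 in codes 1 to 8 alone, and Hspa2 was 0.095 with the block without codes 10 and 11. Hspa1b was -0.004 and Dnajc9 -0.007 in codes 10 to 14 alone; with the block, Hspa1b was -0.05 without codes 1 and 2 and Dnajc9 -0.001 without codes 13 and 14. Without 1 library, Cct3 ranged from -0.06 to 0.053, Cct5 from -0.07 to 0.005, Tcp1 from -0.113 to 0.013, Hspa8 from -0.04 to 0.128, Hspa1b from -0.15 to 0.193, Hspa2 from -0.449 to 0.201 and Dnajc9 from -0.035 to 0.068. The causes were not tested. In the libraries 3 counts equal 0.0728 to 0.101 CPM; how depth bears on the calls was not tested.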
